A study of Mus musculus with 6 samples.

Results

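The genes described here are 10 genes of MHC class I antigen presentation: the heavy chains H2-K1, H2-D1, H2-Q4, H2-Q6, H2-Q7 and H2-T23, the light chain B2m, and the peptide loading genes Tap1, Tap2 and Tapbp. They were chosen by symbol, as the lines of the authors' deposited table that carry those names, and all 10 were found among its 33924 genes. The rule uses symbols and no measured value, but the genes were chosen with earlier results of these data known.

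Class I molecules show peptides from inside a cell to T cells and natural killer cells. A heavy chain folds with beta-2-microglobulin in the endoplasmic reticulum, where the transporter made of Tap1 and Tap2 delivers peptides cut by the proteasome. Tapasin, the product of Tapbp, holds the empty molecule at the transporter until a peptide binds. Interferon gamma is known to raise transcription of most of these genes, and neural and ocular tissues are known for low class I levels at rest.

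The study compared RPE/choroid of young and aged wild-type C57BL/6J mice with total RNA sequencing, to ask how the tissue's transcriptome differs with age. RPE/choroid is the pigmented epithelium behind the retina with the vascular layer under it, here scraped off the sclera once the neural retina had been taken away, with 2 eyes in each sample. There were 3 young libraries, labelled as 1 to 2 months old, and 3 aged libraries, whose titles give 20 to 24 months and whose time label gives 22 to 24 months. All 6 are labelled male, whereas the study's methods name mice of both sexes and an older range for the young. No transgene, treatment or other allele is named for either group. The titles number a separate mouse for each sample, so p-values measure the spread between mice of a group.

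The authors' table holds 1 line per gene: the baseMean, which is the mean normalized count over all 6 libraries, a fold change on the log2 scale and its standard error (SE), the Wald score and a DESeq2 p-value and adjusted p. It holds 0 columns for single libraries, so neither a value per sample nor the depth of a library can be given here, and the spread between samples enters only through the SE. Fold changes are written as aged over young, and each direction rests on reading the deposited sign as young over aged. A gene is said to rise or fall where its adjusted p was under 0.05, and 18636 genes had an adjusted p and are called tested. The level of a gene in each group was worked out from its baseMean and its fold change and is called an implied level. The SE was smaller in the genes with the fewest counts, with a median of 0.24 at a baseMean under 2 and of 0.43 among tested genes under 30. That pattern is what fold changes shrunk towards 0 would give, in which case the implied difference of a gene with few counts is understated.

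The tissue's defining markers were present. Rpe65, the isomerase of the visual cycle in RPE, had a baseMean of 43745, and none of the 10 RPE or 10 endothelial markers was at 0. None of the 10 markers of rod photoreceptors was at 0 either, so retinal RNA was present, and 0 of the 10 passed the DESeq2 test, with 0 at an unadjusted p under 0.05. Because the tissue was measured in bulk, more cells that express a gene and more RNA of that gene per cell cannot be told apart in anything that follows.

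All 9 class I and loading genes that were tested rose in aged RPE/choroid, and none fell. Over all genes tested, 21.2% differed with age and 11.3% were higher in aged mice. The median log2 fold change of the 9 was 1.61, a 3.06-fold rise, against a median of -0.01 over all genes tested. H2-Q6, the remaining gene, has a fold change but no p-value in the table, which DESeq2 leaves out where 1 library lies far from the rest. With a log2 fold change of at least 1 also required, 8 of the 9 were higher, against 3.65% of all genes tested, and Tapbp was the exception.

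**Figure D1:**
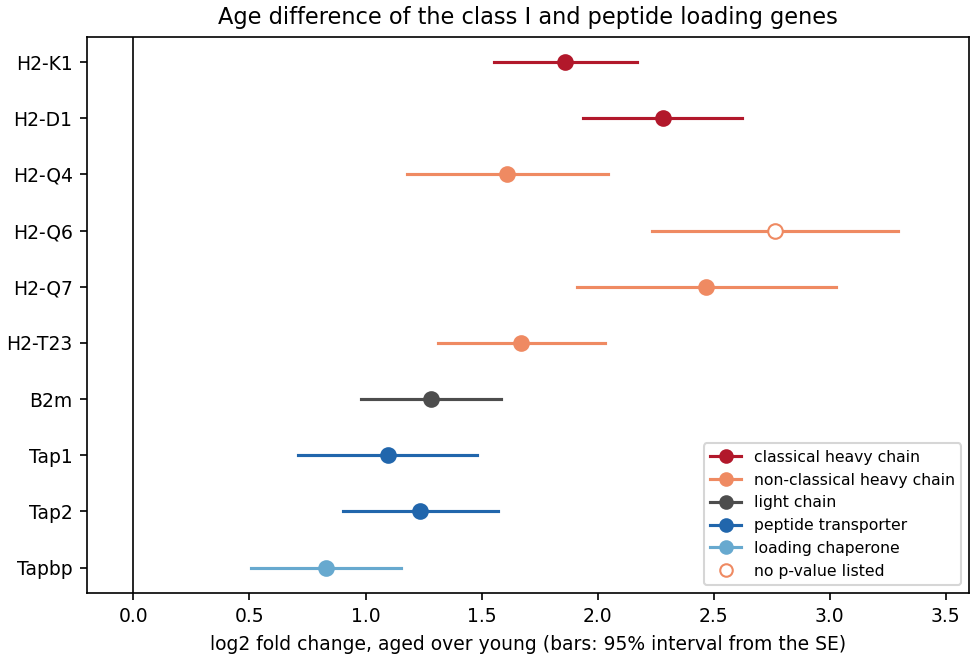
The log2 fold change of each gene, aged over young, on the horizontal axis, with bars for the 95% interval computed from its SE and colours for its role. All 10 intervals lie above 0, heavy chains lie furthest to the right, and H2-Q6 is drawn open because no p-value is listed for it.

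The upstream sequences of 3 heavy chains and of B2m are shown first, since heavy chains and B2m had the highest fold changes of the list and hold known class I elements close to their start. RefSeq promoters of the mouse build GRCm38.p6 were matched for 9 of the 10 genes, all but Tap2, and only bases upstream of the start that lie outside annotated exons are printed. All 200 bases before the RefSeq start of H2-D1 lie in an exon of another H2-D1 transcript, and those of H2-Q4 in an exon of Gm11131 on the other strand, so their matches are described without the sequence. Capitals mark matches, on either strand, to the NF-kappa-B consensus, to the class I interferon element core TTTCACTTC, to a tandem interferon element GAAANNGAAA, to TGACG, the core of the X2-type element, and to CCAAT, the Y box.
H2-K1, chr17:34000348-34000547, minus strand: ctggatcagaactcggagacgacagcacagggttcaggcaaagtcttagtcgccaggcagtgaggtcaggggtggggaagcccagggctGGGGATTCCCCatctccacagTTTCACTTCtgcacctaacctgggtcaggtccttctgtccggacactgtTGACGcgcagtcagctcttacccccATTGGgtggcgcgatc
H2-Q6, chr17:35424650-35424849, plus strand: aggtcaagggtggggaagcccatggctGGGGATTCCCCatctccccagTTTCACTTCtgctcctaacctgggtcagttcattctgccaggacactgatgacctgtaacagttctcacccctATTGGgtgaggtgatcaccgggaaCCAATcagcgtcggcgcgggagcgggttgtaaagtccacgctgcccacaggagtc
H2-Q7, chr17:35438955-35439154, plus strand: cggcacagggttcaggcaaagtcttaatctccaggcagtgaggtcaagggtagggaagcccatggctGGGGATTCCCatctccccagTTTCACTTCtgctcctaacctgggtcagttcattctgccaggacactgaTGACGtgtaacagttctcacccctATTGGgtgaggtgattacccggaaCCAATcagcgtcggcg
B2m, chr2:122147487-122147685, plus strand: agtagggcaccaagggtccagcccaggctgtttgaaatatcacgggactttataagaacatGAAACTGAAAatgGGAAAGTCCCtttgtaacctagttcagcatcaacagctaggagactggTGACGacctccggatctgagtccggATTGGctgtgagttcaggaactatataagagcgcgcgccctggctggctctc
The first 3 of these hold the same elements in the same order, read from left to right as NF-kappa-B, interferon element core and Y box. The interferon element core began 21 bases after the first NF-kappa-B match in H2-K1, H2-D1, H2-Q4 and H2-Q6, and 20 bases after it in H2-Q7. A Y box match, read on the opposite strand, began 73 or 74 bases after that core in all 5. TGACG lay 49 bases after the core in H2-K1, H2-D1 and H2-Q7 and 80 bases after it in H2-Q4, and was not found in the window of H2-Q6.

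B2m and H2-T23 lacked the core TTTCACTTC in this window and held the tandem GAAANNGAAA instead. The shared core is uncommon: 0.402% of 32851 promoter windows of 250 bases hold it, against 7.25% for the NF-kappa-B consensus, 2.98% for GAAANNGAAA, 17.8% for TGACG and 33.8% for CCAAT. The Tap1 window held TGACG and CCAAT, and that of Tapbp held CCAAT alone. For H2-T23 only the first 46 of the 200 bases come before an annotated exon, and its tandem match lies after them. The 200 bases of Tap1 and Tapbp begin within an annotated exon. The RefSeq start used for Tapbp lies inside the annotated span of that gene. NF-kappa-B matches of neighbouring frames and both strands overlapped each other, and no other pair of elements overlapped in the sequences printed. Such a match is a description of letters and shows no binding.

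**Figure D2:**
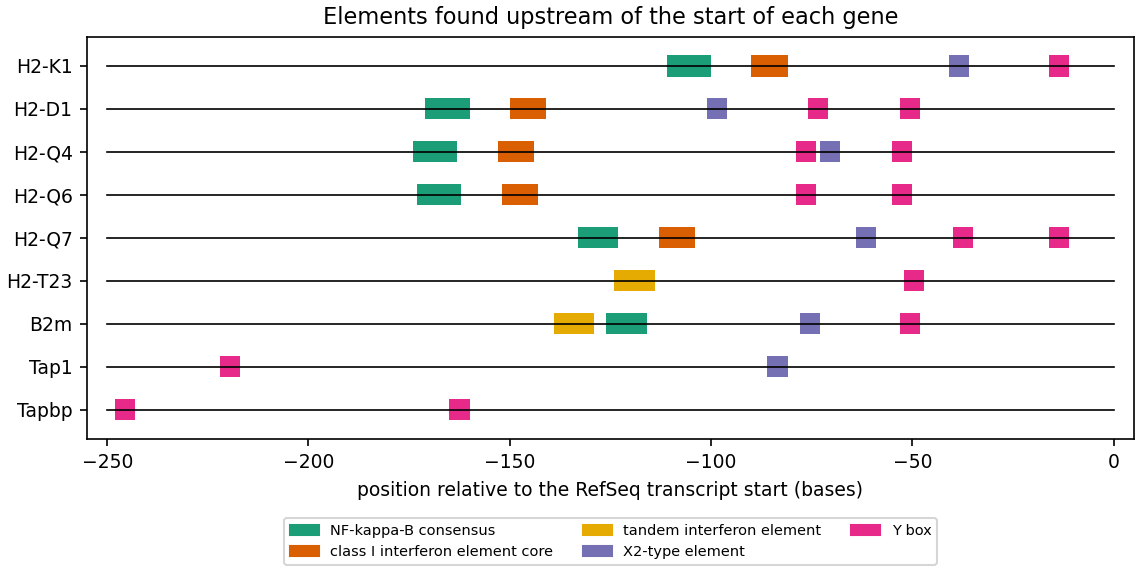
Elements in the 250 bases before the RefSeq start of 9 genes, with the position in bases on the horizontal axis and 1 line per gene. NF-kappa-B (green) and the interferon element core (orange) stand side by side in the 5 heavy chains H2-K1, H2-D1, H2-Q4, H2-Q6 and H2-Q7, and B2m and H2-T23 carry the tandem element (yellow).

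NF-kappa-B, the core, TGACG and CCAAT were all found in the windows of 6 genes in all: H2-D1, H2-K1, H2-Q4, H2-Q7, the class I-like heavy chain H2-M3 and Rab28, a small GTPase. Of these, 5 rose with age, and Rab28 stood at 0.27 on the log2 scale (SE 0.14; DESeq2 adjusted p = 0.144). Outside the 10 genes, 51 tested genes held the core and 10 of them, 19.6%, were higher in aged mice, with a median log2 fold change of 0.07. The elements were chosen with these promoters and the genes' fold changes known, so the counts are a description and were not tested.

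The classical heavy chains H2-K1 and H2-D1, which present peptides to CD8 T cells, had the highest implied levels per kilobase among the heavy chains at either age. H2-D1 had an implied level of 4905 normalized counts in young and 23831 in aged RPE/choroid, a 4.86-fold rise (95% interval 3.84 to 6.15; log2 2.28, SE 0.17; adjusted p = 7.25e-37). H2-K1 had implied levels of 3063 and 11123 normalized counts, a 3.63-fold rise (95% interval 2.93 to 4.50; log2 1.86, SE 0.16; adjusted p = 5.21e-30). Ordered by adjusted p among all genes tested, H2-D1 was number 74 and H2-K1 number 111. H2-D1 lies at chr17:35262730-35267499 on the plus strand and H2-K1 at chr17:33996017-34000347 on the minus strand of GRCm38.

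Non-classical heavy chains are less variable between individuals and serve narrower roles. H2-T23 encodes Qa-1, the ligand of the CD94/NKG2 receptors of natural killer cells, and rose 3.19-fold (95% interval 2.48 to 4.09), from an implied 1068 to 3404 normalized counts. Its adjusted p was 7.19e-18. H2-Q4, a Q region heavy chain, rose 3.06-fold (95% interval 2.27 to 4.12), from an implied 469 to 1432 normalized counts (adjusted p = 1.36e-11). H2-Q7, one of the genes of the Qa-2 antigen, had the largest rise among the 9, 5.54-fold (95% interval 3.76 to 8.16), from an implied 37.5 to 208 normalized counts (adjusted p = 3.82e-16). H2-Q6, another Qa-2 gene, was listed at a log2 fold change of 2.76 (SE 0.27), with implied levels of 71.5 and 486 normalized counts, but no p-value.

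The Q region values carry an uncertainty of assignment, because these genes are near copies of each other. Of the 31-base words in the coding transcripts of H2-Q7, 51.9% occurred in no other gene, while 29.1% also occurred in H2-Q5, which is not analysed here, 23.5% in H2-Q6 and 12.8% in H2-D1. The share of words of its own was 41.6% for H2-Q4, 48.2% for H2-Q6, 51.0% for H2-T23, 72.1% for H2-D1 and 79.7% for H2-K1. B2m shared none. The authors estimated abundances with Sailfish at its default settings, which apportions sequence shared between transcripts by an estimate, so the values of the Q genes are uncertain, singly and in sum. The 6 heavy chains together had an implied 9615 normalized counts in young and 40484 in aged mice, a 4.21-fold difference, and this sum without the 3 Q genes differed 4.24-fold.

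B2m, the light chain that every heavy chain above needs to reach the cell surface, rose less than the heavy chains in sum. Its implied level was 6276 normalized counts in young and 15270 in aged RPE/choroid, a 2.43-fold rise (95% interval 1.97 to 3.00; adjusted p = 6.49e-15). The gene lies at chr2:122147686-122153083 on the plus strand and is the only one of the 10 outside chromosome 17. Per kilobase of the longest coding transcript, the heavy chains summed to 0.722 of the B2m level in young and to 1.22 of it in aged mice. With the mean length of a gene's coding transcripts these ratios were 1.22 and 2.16, so the ratio itself depends on the transcript length used, while it was higher in aged mice on both.

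The peptide loading genes rose by the smallest factors of the 10, with intervals that overlapped that of B2m. Tap2 rose 2.36-fold (95% interval 1.87 to 2.97; adjusted p = 1.59e-11) and Tap1 2.14-fold (95% interval 1.63 to 2.79; adjusted p = 7.42e-07), and the intervals of these transporter subunits overlapped. Implied levels were 339 and 799 normalized counts for Tap2 and 517 and 1105 for Tap1. Tapbp rose 1.78-fold (95% interval 1.42 to 2.22; adjusted p = 1.03e-05), from an implied 1525 to 2709 normalized counts. Tap1 (chr17:34187553-34197225) and Tap2 (chr17:34203527-34216321) lie close to each other on the plus strand, and Tapbp lies at chr17:33915899-33929292. Tapbp shared 20.7% of its 31-base words with Gm19412, which overlaps it on the other strand, and Tap1 shared 6.11% with the overlapping Psmb9.

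Set in order of fold change, the list ran from H2-Q6 and H2-Q7 through H2-D1, H2-K1, H2-T23, H2-Q4, B2m, Tap2 and Tap1 to Tapbp. Each gene overlapped the next in that order in its 95% interval, which does not show whether the 2 differ. Of all 45 pairs, 19 had intervals that did not overlap. Part of these pairs rest on H2-Q6, which has no p-value. The interval of H2-Q6 lay above those of H2-K1, H2-Q4, H2-T23, B2m, Tap1, Tap2 and Tapbp. The interval of H2-D1 lay above those of B2m, Tap1, Tap2 and Tapbp, and so did that of H2-Q7. The interval of H2-K1 lay above those of Tap1 and Tapbp, while the intervals of H2-Q4 and H2-T23 lay above that of Tapbp alone. A test of the difference between 2 genes needs values per library and was not run.

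**Figure D3:**
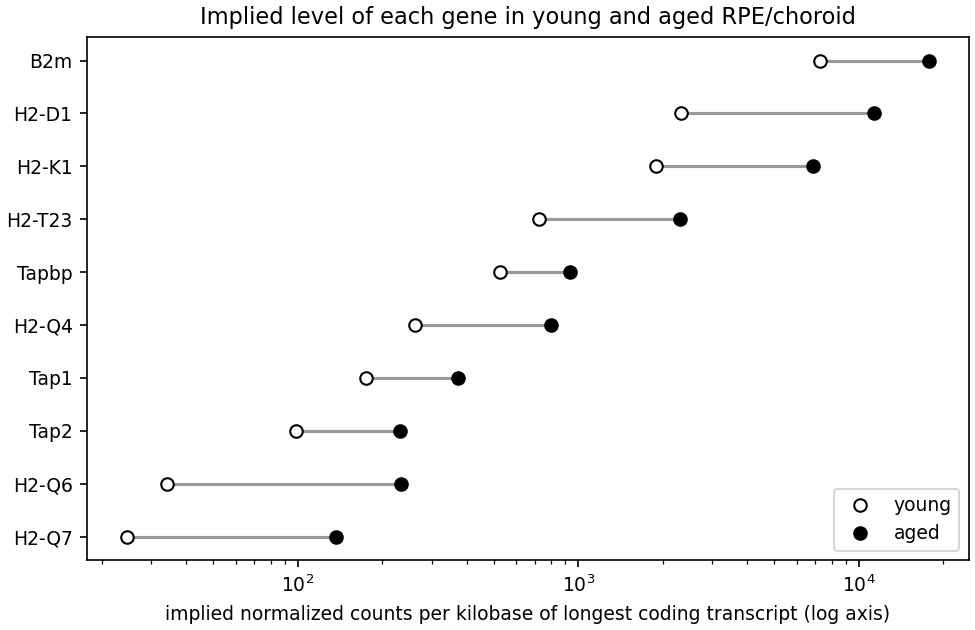
Implied normalized counts per kilobase of the longest coding transcript in young (open) and aged (filled) RPE/choroid, on a log axis, with genes ordered by their mean over both ages. B2m stands highest at both ages, with 7297 in young and 17756 in aged mice, and H2-Q7 lowest, with 24.7 and 137.

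Per kilobase of the longest coding transcript, B2m led at both ages, followed by H2-D1, H2-K1 and H2-T23. By the mean length of coding transcripts B2m led in young mice, with 7297 against 5076 for H2-D1, and H2-D1 in aged mice, with 24661 against 17756 for B2m, and Tapbp stood above H2-T23 in the mean over both ages. By the longest transcript, H2-D1 and H2-K1 made up 80.2% of the heavy chain level per kilobase in young mice and 83.9% in aged mice. Between the least and the most abundant of the 10, the baseMean ran from 123 to 14368 normalized counts.

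Proteasomes that supply class I peptides exchange catalytic subunits under interferon, and the data hold both versions. Of 6 genes for the immunoproteasome and its activator, 5 rose and none fell. Psmb8 rose by 1.57 on the log2 scale (SE 0.16; adjusted p = 1.58e-19) and Psmb9 by 1.45 (SE 0.20; adjusted p = 6.2e-12), while Psmb10 rose by 0.70 and the activator subunits Psme1 and Psme2 by 0.39 and 0.54. Neither Psme1 nor Psme2 passed at an adjusted p under 0.01, and centring on the median of abundant genes ended the call of Psme1 (adjusted p = 0.0797). Of the 5 constitutive counterparts, 0 passed the threshold in DESeq2, and 3 had an unadjusted p under 0.05. The subunits that the immune forms replace had log2 fold changes of 0.42 for Psmb5 (adjusted p = 0.0546), 0.38 for Psmb6 (adjusted p = 0.0772) and 0.12 for Psmb7 (adjusted p = 0.618). Psmb8 and Psmb9 stood in the range of Tap1 to H2-T23. Whether the 2 proteasome lists differ from each other was not tested.

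General chaperones of the endoplasmic reticulum and peptidases that trim peptides formed the next list. Of its 13 genes, 3 rose, 1 fell and 9 did not pass the threshold, with a median log2 fold change of 0.14. Tapbpl, a relative of tapasin that edits peptides, rose by 0.68 (SE 0.17), and the folding factors Canx and Pdia3 rose by 0.37 and 0.39. The calls of Canx and Pdia3 were lost after centring on the median of abundant genes (adjusted p = 0.0603 and 0.0588) and at an adjusted p under 0.01. Calreticulin (Calr), which binds the same loading complex, had a log2 fold change of 0.08 (adjusted p = 0.730), and the trimming peptidase Erap1 of 0.27 (adjusted p = 0.0954). Ide, the insulin-degrading enzyme, fell by 1.07 on the log2 scale (SE 0.12; adjusted p = 2.93e-16).

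Among 15 tested heavy chains outside the 10, 9 rose and 1 fell, with a median log2 fold change of 0.56. H2-M2, from the M region, had the largest rise, 5.22 (SE 0.39; adjusted p = 1.74e-39), from an implied 4.62 to 173 normalized counts. H2-M3, which presents formylated peptides, rose by 1.25, H2-T22, a ligand of gamma delta T cells, by 0.90, and Mr1, which presents vitamin metabolites, by 0.38. The call of Mr1 was lost after the same centring (adjusted p = 0.103), without the filter on low counts (adjusted p = 0.0577) and at an adjusted p under 0.01. H2-M5 fell by 1.16 on the log2 scale (SE 0.36; adjusted p = 0.00942). Fcgrt, the neonatal Fc receptor, which pairs with B2m but carries IgG rather than peptide, stood at -0.10 (SE 0.18; adjusted p = 0.761).

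Nlrc5, the transactivator that occupies class I promoters, rose by 1.66 on the log2 scale (SE 0.19; adjusted p = 6.13e-17), a size between those of H2-Q4 and H2-T23. Of 13 tested regulators, 2 rose and 1 fell. The one that fell was Nfyc, a subunit of the factor that binds the Y box, by 0.78 on the log2 scale. Irf1, an interferon-induced transcription factor, had a log2 fold change of 0.32 (adjusted p = 0.0814) and Rfx5, part of the complex on class I and class II promoters, of -0.15 (adjusted p = 0.580). The list's median was 0.26.

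Interferon gamma RNA itself was barely present. Ifng had a baseMean of 2.12 normalized counts, a log2 fold change of 0.85 (SE 0.40) and no adjusted p, and its receptor chain Ifngr1 had a log2 fold change of 0.32 (adjusted p = 0.0816). No interferon ligand gene on the list had an adjusted p. Of 13 tested interferon receptor and signalling genes, 5 rose and none fell, led by Socs3, a feedback inhibitor of cytokine signalling, at 0.73. Interferon-stimulated genes outside presentation rose in 22 of 29 cases with none lower and a median of 0.70, and the largest rise was that of the chemokine gene Cxcl9, at 1.88 (SE 0.37).

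**Figure D4:**
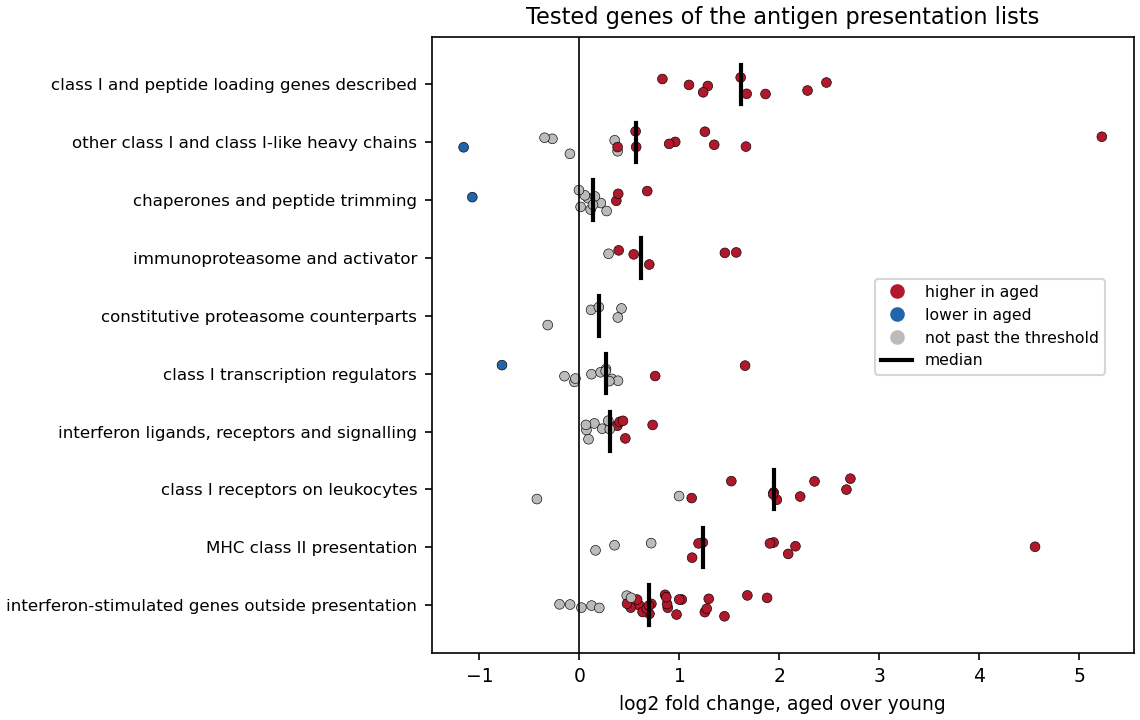
The log2 fold change of every tested gene on each list, aged over young, with black bars for list medians and red and blue points for genes that rose or fell. The class I and peptide loading genes lie between 0.83 and 2.47 with a median of 1.61, and the constitutive proteasome genes lie between -0.32 and 0.42.

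Receptors that read class I molecules are made by leukocytes, and 9 of 11 tested genes on a list of them and their relatives rose, with none lower. Cd8a and Cd8b1, the CD8 co-receptor chains of T cells, rose by 1.97 (SE 0.35) and 1.94 (SE 0.42) on the log2 scale from low levels, with baseMeans of 34.6 and 19.3. Gp49a, a myeloid relative that is not known to bind class I, had the largest rise on the list, 2.71 (SE 0.16; adjusted p = 4.71e-59). Without Gp49a and its close relative Lilrb4, left out after the values were seen, 7 of 9 rose. The class II pathway, which serves professional antigen-presenting cells, had 8 of 11 genes higher and none lower, with a median of 1.23. Among them the invariant chain Cd74 rose by 1.90, the class II transactivator Ciita by 1.19 and Ctss, the protease cathepsin S that digests the invariant chain, by 4.56. Class I, class II and interferon-stimulated lists share the same 6 libraries, and differences between their medians were not tested.

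Many markers of immune cells were also higher in aged mice, to an extent that differed between lists. All 6 common leukocyte markers rose. Their summed implied level went from 2895 normalized counts in young to 9980 in aged mice, a 3.45-fold difference. The 10 class I and loading genes differed 3.30-fold in sum. Whether these sums vary together between mice cannot be seen without values per library. Ptprc, the leukocyte antigen CD45, rose by 1.94 on the log2 scale (SE 0.12). Of 15 macrophage markers, 11 rose and 2 fell, with sums of 15953 and 39410 normalized counts. The 2 that fell were Cd163 and Lyve1, both found on resident macrophages of vessels and connective tissue, at -2.34 and -2.01. Of 14 tested T and natural killer cell markers, 11 rose, with sums of 270 and 932 normalized counts. Cd4 was the most abundant of them, going from an implied 76.4 to 407. Without Cd4, left out after the values were seen, the sums were 193 and 525, a 2.71-fold difference.

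Of 9 tested B and plasma cell markers, 3 rose, among them Cd22, an inhibitory B cell receptor, at 3.10 on the log2 scale, and Igj, the joining chain of antibodies, at 2.35. The sums of that list, 1678 and 1780 normalized counts, were carried by Sdc1, which epithelia also express and which went from 1392 to 880 without passing the threshold (adjusted p = 0.0530). Without Sdc1 the sums were 286 and 901, a 3.15-fold difference, an alternative chosen after seeing the data. Of 8 dendritic cell markers 3 rose, with sums of 852 and 917. None of the 9 tested endothelial markers rose and 1 fell, with sums of 25826 and 25350. RPE markers rose in 3 of 9 cases, with sums of 281235 and 346062, and 2 of 8 melanocyte markers fell, with sums of 200660 and 171356. No marker of any of these lists was at 0. The part of a changed leukocyte content in the class I differences was not tested.

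The class I genes of chromosome 17 sit in the mouse major histocompatibility complex, and 9 of the 10 fall within 2.12 megabases of each other, from Tapbp to H2-T23 (chr17:33915899-36032855). The 8 of them that were tested all rose. Among the 85 other tested genes in that interval that are on no presentation list, 13 rose and 4 fell, with a median log2 fold change of 0.12 (H2-Eb2, a class II gene that was not on the class II list, is among the 13). The share that rose, 15.3%, compares with the 11.3% of all genes tested. Of 12 tested class I, class II or immunoproteasome genes on other lists in the interval, 7 rose and none fell, with a median of 1.18. Rps18, a ribosomal protein gene near Tapbp, rose by 0.52, and Col11a2, a collagen gene between Tapbp and Tap1, fell by 2.59 on the log2 scale, so close neighbours moved in both directions. These neighbours were named after their values were seen.

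**Figure D5:**
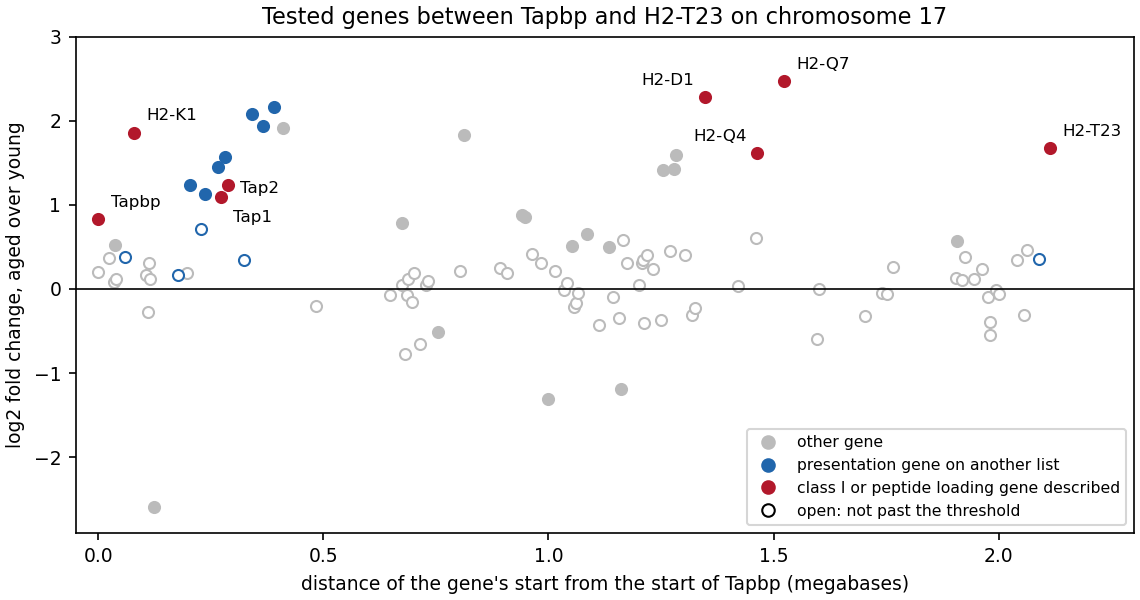
Log2 fold change, aged over young, of each tested gene against the distance of its start from that of Tapbp, in megabases along chromosome 17. The class I and peptide loading genes (red) lie between 0.83 and 2.47, while most other genes (grey) lie near 0, and open circles did not pass the threshold.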

How the data were processed

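Total RNA of 3 young and 3 aged RPE/choroid samples was depleted of ribosomal RNA, made into stranded libraries without poly(A) selection and sequenced in pairs. Per the study's methods and the submitters' processing notes, the authors trimmed reads (BBDuk), mapped them to the Ensembl transcripts of GRCm38 (STAR), estimated abundances (Sailfish), scaled by total count and compared groups with DESeq2 (version not given). The 1 deposited table holds for each gene the baseMean, a normalized signal, the log2 fold change and its SE, the Wald score, and the p-value and adjusted p-value, all as deposited by the authors. These comparison columns are the authors' own and were used because 0 columns hold values of a sample.

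The sign, which the table does not name, was read as young over aged, the reading that gives the study's own split between higher and lower genes, and was reversed. Of 33924 genes, 7243 had a baseMean of 0, 160 a fold change but no p-value, and 7885, all at a baseMean of at most 7.07, a p-value but no adjusted p. The Wald p and Benjamini-Hochberg adjustment recomputed from the deposited columns lay within 0.449% and 0.572% of the deposited ones, and the functions were tested on simulated data.

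Implied group levels solve the baseMean as the mean of 2 equal groups whose ratio is the fold change. The 95% intervals are normal intervals from the SE. Positions, transcript lengths and 31-base words came from GENCODE (GRCm38), and promoters from RefSeq (GRCm38.p6). Work was done in Python 3.11.15 with pandas 2.3.3, numpy 2.4.6, scipy 1.17.1 and matplotlib 3.10.9. The rule for the 10 genes uses symbols alone, but those genes, the lists and the genes named were chosen with earlier results of these data known. Named were all 10 genes, a fixed set of 27 genes of the pathway, and the largest rise and fall among the genes that differ on each pathway list; 1 gene of that set is not reported here. Alternatives were an adjusted p under 0.01, a log2 fold change of at least 1, adjustment without the low-count filter or from a baseMean of 100, centring, and a p from the Wald score where none was listed.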

Additional observations from a re-analysis of the deposited data

How the results depend on the processing

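The rise of the 9 tested class I and loading genes held at an adjusted p under 0.01, with adjustment over all genes with a p-value, with adjustment over genes with a baseMean of at least 100, and after centring on the median of such genes (a log2 shift of 0.06), where their log2 fold changes ran from 0.76 to 2.40. Over these alternatives their highest adjusted p was 6.34e-05. Requiring a log2 fold change of at least 1 left 8 of them, without Tapbp. With a p from the Wald score where none was listed, H2-Q6 passed as well (adjusted p = 2.51e-22) and 10 genes were called. That p ignores the reason for which DESeq2 gave none. All genes that differ numbered 3949, with 2520 at an adjusted p under 0.01, and with 1542 once a log2 fold change of 1 or more was required, the latter 681 higher and 861 lower. Centring turned the split of 2100 higher and 1849 lower into 1650 and 2289. On the pathway lists outside the 10 genes, 66 genes differed, and 33 with a change of that size. After centring, 60 differed, 56 higher and 4 lower against 63 and 3 before, and of the genes named in the text Canx, Mr1, Pdia3 and Psme1 no longer passed, with adjusted p of 0.0603, 0.103, 0.0588 and 0.0797. The log2 ratio of the heavy chain sum, 2.07, was 1.75 without H2-K1 and H2-D1. By mean transcript length, H2-D1 instead of B2m led the order per kilobase in aged mice and in the mean over both ages. Without its most abundant gene, an alternative chosen after seeing the data, the summed fold moved by over 1.5 times for B and plasma cell markers alone among the 9 marker lists, from 1.06 to 3.15. No paired analysis was possible because no single library has values of its own in the table, and for the same reason another tool or normalization and leaving out each replicate were not run. The depth behind each value is unknown here.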
